A study of Mus musculus with 18 samples.

Results

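The transcripts of 4 genes of IL-6 signaling were followed in muscle of tumor-bearing mice, in models used to study cachexia, the loss of muscle and fat in cancer. Il6ra encodes the binding chain of the IL-6 receptor, Stat3 the transcription factor that the receptor activates, Cebpb the transcription factor C/EBP beta, and Bcl2l1 the anti-apoptotic protein BCL-xL together with its shorter isoform. The 4 genes were chosen by name from 254 genes measured in the series, with earlier results of these data known. The series measured TA muscle from male mice with a mouse inflammation panel of nCounter probes, which are barcoded and counted on unamplified RNA, loading 100 ng for each sample. There were 18 samples in 6 groups of 3, a tumor-bearing and a non-tumor-bearing group for each of 3 models. C26 mice, of strain CD2F1, received injected C26 cells, a colon carcinoma line. LLC mice, of strain C57/B6, received injected LLC cells, the Lewis lung carcinoma line. In KPP mice, also labelled C57/B6, tamoxifen given into the peritoneum induced the tumors. The labels give neither the alleles of the KPP mice nor the animals' ages, and do not say what the non-tumor-bearing mice were given in place of cells or tamoxifen. They also do not say that each sample came from its own animal, so p-values measure the spread between samples, part of which may be technical. Each sample is named by its model, its group and its replicate letter.

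As background, IL-6 binds its receptor chain, which is membrane-bound or soluble, and the pair recruits the shared signal transducer gp130. Kinases of the JAK family then phosphorylate STAT3, which enters the nucleus and raises transcription of its targets, among which Bcl2l1 and Cebpb are commonly counted. C/EBP beta was first described as a nuclear factor for IL-6 expression and is activated downstream of p38 MAP kinase in several tissues. In muscle of cachectic mice IL-6, STAT3 and C/EBP beta are studied for their part in protein breakdown. The panel reads RNA only, so the phosphorylation of STAT3 and the translated isoforms of C/EBP beta were not measured.

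The promoter windows of Il6ra and Bcl2l1 are shown because their values moved together most closely over samples, as described further on. They run from 250 bases before to 50 bases after an annotated start (RefSeq, build GRCm38.p6), on the minus strand in each case, at chr3:89913147-89913446 for Il6ra and chr2:152830668-152830967 for the second of 3 starts of Bcl2l1. Capitals mark matches to TTNCGNAA, a loose form of the palindrome that C/EBP factors bind, which reads the same on both strands.
Il6ra: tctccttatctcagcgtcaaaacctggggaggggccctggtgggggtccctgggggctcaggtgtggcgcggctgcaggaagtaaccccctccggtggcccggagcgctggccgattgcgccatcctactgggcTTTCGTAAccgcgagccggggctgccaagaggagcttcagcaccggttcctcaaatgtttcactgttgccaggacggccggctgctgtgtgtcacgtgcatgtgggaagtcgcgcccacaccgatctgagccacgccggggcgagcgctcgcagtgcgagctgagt
Bcl2l1: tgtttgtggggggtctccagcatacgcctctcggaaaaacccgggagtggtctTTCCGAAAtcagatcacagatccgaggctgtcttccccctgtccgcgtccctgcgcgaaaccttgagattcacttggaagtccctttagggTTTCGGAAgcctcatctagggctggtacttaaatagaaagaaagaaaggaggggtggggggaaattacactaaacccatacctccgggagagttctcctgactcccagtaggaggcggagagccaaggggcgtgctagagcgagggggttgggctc
The Il6ra window held 1 match, with its first letter at position -116 from the start, and the second Bcl2l1 window held 2 matches, with first letters at positions -197 and -106 from the start. The other 2 Bcl2l1 windows and the single windows of Stat3, on chromosome 11, and Cebpb, on chromosome 2, held none. Of the Bcl2l1 windows, only that with matches is printed. Of all 32851 promoter windows, 811 (2.47%) held the motif, and of 27025 genes 753 (2.79%) had it in at least 1 window. The STAT element TTCNNNGAA, also the same on both strands, was in none of the 6 windows of the 4 genes and in 8.3% of all windows. These matches describe letters in the windows and not sites of binding. GC content was 66.0% in the Il6ra window, 60.7% in that of Stat3, 80.7% in that of Cebpb and 55.7% in the second of Bcl2l1, against a median of 52.7% over all windows.

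The deposited values are a normalized signal, scaled within each model to 6 housekeeping genes, so levels are compared within a model. The 4 genes were above 20, the limit used here as background, in all 18 samples. Their lowest value was 27.1, for Il6ra in C26 tumor A. From the size of the steps between low values, total counts behind the gene values were 29748 to 95015 in C26, 41895 to 106869 in LLC and 61293 to 402521 in KPP. Il6ra rested on the fewest counts, 15 in KPP control B and 19 to 29 in the C26 tumor-bearing samples, which leaves a counting error of 26.1% and of 18.6% to 22.9%. Cebpb rested on 321 counts or more and Stat3 on 115 or more, with counting errors of at most 5.6% and 9.3%. Bcl2l1 rested on 35 or more, with counting errors of at most 16.9%. Of 12 muscle genes listed to check the tissue 7 were on the panel, and all 7, among them Mef2a, Mef2c, Mef2d and Hspb2, were above background in at least 1 sample of every group. The C1q genes and Tyrobp of macrophages were above background in each group too, so the RNA is that of whole muscle. In such bulk samples fewer cells of a type cannot be told apart from less RNA per cell. No gene of the panel checks the tumor status itself, and the labels are taken as given.

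Differences between tumor-bearing and control samples are log2 fold changes of value + 1, which slightly understate the change of low genes. They were tested with limma in 1 fit of all 18 samples, with p adjusted over the 168 genes that passed the filter on low values. The spread between replicates differed between models. The median SD on the log2 scale was 0.64 in C26 controls and 0.11 in LLC controls, so a shared spread is small for C26 and large for LLC. Each call on the 4 genes is therefore given beside that of a fit of the model's 6 samples alone, over the genes above background in that model (128 in C26, 129 in LLC and 157 in KPP). A fit with array weights per group is given as well. It keeps all 18 samples and lets the spread differ between groups.

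In C26, Stat3 was lower in the samples labelled tumor-bearing by every fit and setting tried, Il6ra was lower in the shared fit, and Cebpb and Bcl2l1 did not pass. Stat3 was 787, 877 and 1048 in controls A, B and C and 244, 279 and 251 in the tumor-bearing samples. The lowest control was thus well above the highest tumor-bearing sample. The means were 904 ± 133 and 258 ± 18.5 (SD, n = 3), a log2 fold change of -1.80 (SE 0.23, limma adjusted p = 0.000253), or 3.51 times higher in controls. The adjusted p was 0.014 in the fit of C26 alone and 0.00912 with array weights. Stat3 had the smallest p of the 168 genes in the shared fit.

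Il6ra was 77.2, 74.2 and 213 in C26 controls and 27.1, 32.4 and 41.7 in the samples labelled tumor-bearing. The groups did not overlap, and control C stood far above the other controls. The means were 122 ± 79.5 and 33.7 ± 7.36 (SD, n = 3), a log2 fold change of -1.66 (SE 0.49, limma adjusted p = 0.0251). This call did not hold with C26 fitted alone (adjusted p = 0.0713) or with array weights (0.0725), nor without control C, where the value was -1.16 (0.0859), tumor A (-1.52, 0.0697) or tumor B (-1.64, 0.0594). Cebpb was 810, 1200.5 and 1637 in controls and 761, 766 and 699 in the tumor-bearing samples. The lowest control, A, was close to the highest of these. The log2 fold change was -0.65 (SE 0.29, adjusted p = 0.0975), and without control A it was -0.92 and passed (adjusted p = 0.0312). Bcl2l1 was 83.6, 104 and 167 in controls and 60.9, 83.0 and 76.5 in the tumor-bearing samples, so that control A and tumor B nearly met (-0.63, SE 0.32, adjusted p = 0.146).

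Thus 2 of the 4 genes were called lower in C26, where 51 of all 168 genes (30.4%) were called and 21.4% were called lower. In the fit of C26 alone Stat3 was the 1 gene of the 4 called, with 4.69% of 128 genes called and 3.12% called lower. With array weights it was again Stat3, with 14.9% of 168 genes called and 10.7% called lower. All 4 genes had C26 groups that did not overlap, all lower in the tumor-bearing samples, as had 29.7% of the 128 genes in that direction. The C26 values depend on the scaling. Of the housekeeping genes, Gapdh stood at 0.79 and Pgk1 at 0.85 in the tumor-bearing samples and the other 4 between -0.61 and -0.29, and the median of all tested genes was -0.31. Scaled without Gapdh and Pgk1, with median centring and with quantile normalization that median was 0.09, 0.25 and 0.16. Stat3 was then -1.39, -1.24 and -1.35 and passed each time. Il6ra was -1.26, -1.10 and -1.10 and passed without Gapdh and Pgk1 (adjusted p = 0.0419) but not with median centring (0.053) or quantile normalization (0.0723). Cebpb moved to -0.25, -0.09 and -0.13 and Bcl2l1 to -0.22, -0.06 and -0.03, none of which passed.

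**Figure D1:**
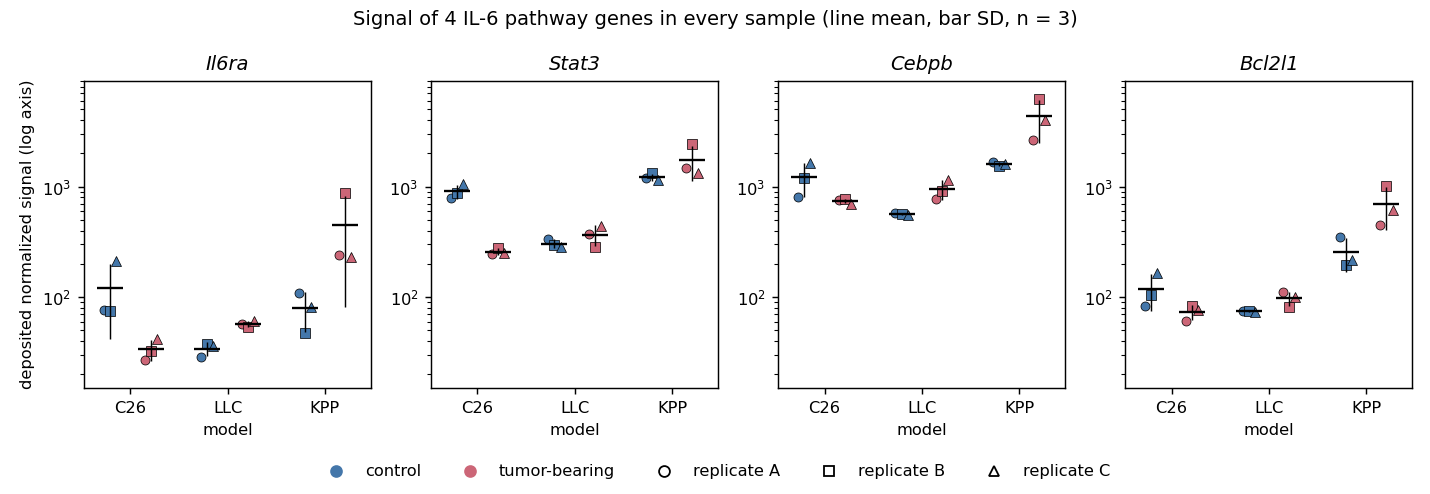
Deposited normalized signal (log axis) of Il6ra, Stat3, Cebpb and Bcl2l1 in each of the 18 samples, by model and group; lines are means and bars SD of 3 samples. Stat3 falls from 904 to 258 in C26, and KPP tumor B, at 873 for Il6ra and 6244 for Cebpb, is the highest sample of each gene.

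In LLC, the 4 genes stood higher in the tumor-bearing samples by small amounts, and none passed the shared fit. Il6ra was 28.7, 37.5 and 36.3 in controls and 56.7, 53.8 and 60.4 in the tumor-bearing samples. Every tumor-bearing sample was above every control. The SD was 13.8% of the mean in controls and 5.81% in tumor-bearing samples. Counting errors were larger, 15.2% to 17.7% and 10.3% to 15.8%, so the replicates lay closer together than counting alone would give. The means were 34.2 ± 4.72 and 56.9 ± 3.31 (SD, n = 3), a log2 fold change of 0.73 (SE 0.49, limma adjusted p = 1). Cebpb was 575, 568 and 550.1 in controls and 769, 918 and 1155 in the tumor-bearing samples, again with no overlap (0.73, SE 0.29, adjusted p = 1). Bcl2l1 was 75.5, 74.9 and 73.6 in controls and 110.3, 82.0 and 100.2 in the tumor-bearing samples (0.37, SE 0.32, adjusted p = 1). The Bcl2l1 controls had an SD of 1.35% of the mean, below their counting errors of 9.4% to 12.5%, so this closeness is no measure of precision. Stat3 was 337, 296 and 283 in controls and 376, 285 and 443 in the tumor-bearing samples, which overlapped (0.25, SE 0.23, adjusted p = 1).

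The shared fit called 0 of 168 LLC genes (0%), with 4 (2.38%) at an unadjusted p under 0.05, of which Cebpb had the smallest (0.0243). The fit of LLC alone over its 129 genes called 8 (6.2%), 4.65% as higher, and Il6ra (SE 0.15, adjusted p = 0.0445) and Cebpb (SE 0.17, 0.0489) were higher among them, while Bcl2l1 (0.217) and Stat3 (0.514) did not pass. The Il6ra call rests in part on a replicate spread below the counting error. Over all 168 genes the fit of LLC alone called 0 (0%), with 26 (15.5%) at an unadjusted p under 0.05. With array weights 1 gene of 168 (0.595%) was called in LLC, and it was Cebpb (SE 0.15, adjusted p = 0.0346). Groups did not overlap for 3 of the 4 genes, all higher in the tumor-bearing samples, as for 17.8% of 129 genes in that direction. The scalings moved Il6ra to between 0.55 and 0.67 and Cebpb to between 0.60 and 0.67, and neither passed the shared fit with them.

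In KPP, Il6ra, Cebpb and Bcl2l1 were higher in the tumor-bearing samples in the shared fit, and Stat3 did not pass. Il6ra was 110.0, 47.1 and 81.3 in controls and 242, 873 and 230.4 in the tumor-bearing samples. All 3 tumor-bearing samples exceeded all 3 controls, and tumor B stood far above the other tumor-bearing samples. The means were 79.5 ± 31.5 and 448 ± 368 (SD, n = 3), a log2 fold change of 2.27 (SE 0.49, limma adjusted p = 0.0117). Without tumor B it was 1.64 and still passed (adjusted p = 0.0354). Cebpb was 1660.5, 1519.5 and 1613 in controls and 2663, 6244 and 4003 in the tumor-bearing samples. The controls lay within 4.49% (SD) of their mean, and all tumor-bearing samples were above them. Its log2 fold change was 1.34 (SE 0.29, adjusted p = 0.0117), or 1.03 without tumor B (0.0354). Bcl2l1 was 353, 195 and 217 in controls and 449, 1019 and 618 in the tumor-bearing samples (1.41, SE 0.32, adjusted p = 0.0121; 1.09 without tumor B, 0.0441). Stat3 was 1187, 1319.8 and 1139.98 in controls and 1462, 2425 and 1314 in the tumor-bearing samples. Tumor C lay below control B, so the groups overlapped (0.46, SE 0.23, adjusted p = 0.228; 0.19 without tumor B).

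Thus 3 of the 4 genes were called higher in KPP, where 19 of 168 genes (11.3%) were called and 5.36% were called higher. With array weights the same 3 passed (adjusted p = 0.00514 for Il6ra and Cebpb and 0.0111 for Bcl2l1), with 13.1% of genes called and 5.95% called higher. In the fit of KPP alone 0 of the 4 passed, with adjusted p of 0.0869, 0.0722 and 0.0976 for Il6ra, Cebpb and Bcl2l1 and unadjusted p of 0.00775, 0.00598 and 0.00932. That fit called 6 of 157 genes (3.82%), and 0 (0%) of them were higher. The 3 calls held whichever of the 6 KPP samples was left out of the shared fit (adjusted p = 0.0498 or less). Groups did not overlap for the same 3 genes, all higher, as for 16.6% of 157 genes in that direction. The scalings left Il6ra between 2.06 and 2.39, Cebpb between 1.14 and 1.35 and Bcl2l1 between 1.21 and 1.44, each passing.

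**Figure D2:**
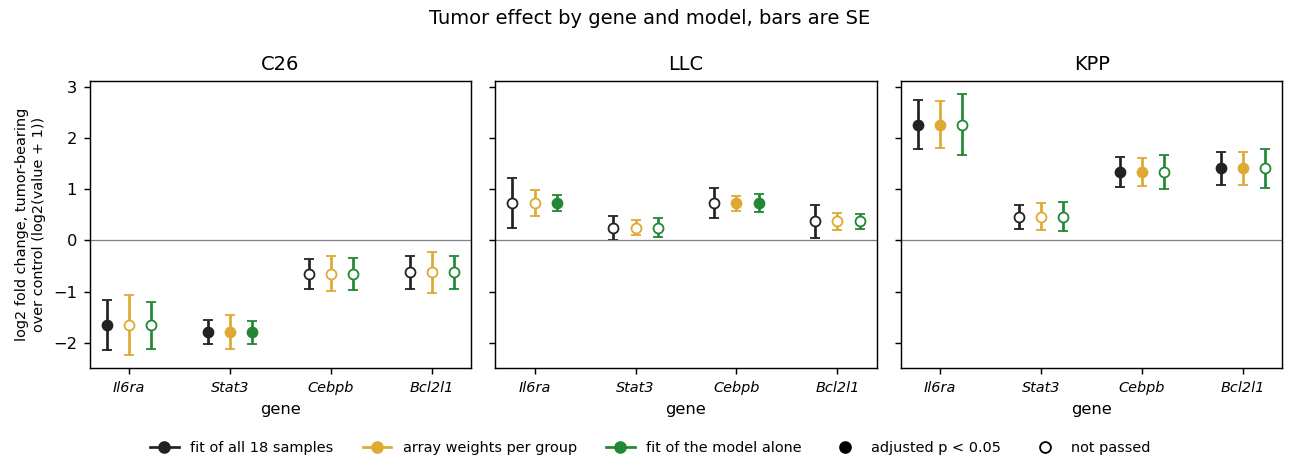
Log2 fold change (tumor-bearing over control) with SE for each gene in each model, by a fit of all 18 samples, by the same fit with array weights per group, and by a fit of the model alone; filled points passed an adjusted p of 0.05. Stat3 in C26 is filled in all 3 fits, while the KPP values of Il6ra, Cebpb and Bcl2l1 are open in the fit of KPP alone.

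The 3 models have separate controls, so the tumor effects can be compared between them. Between C26 and KPP the effect differed for all 4 genes, where 27 of 168 genes (16.1%) differed and 11.9% stood lower in C26. On the log2 scale the C26 effect minus the KPP effect was -3.93 for Il6ra (SE 0.69, limma adjusted p = 0.00207) and -2.26 for Stat3 (SE 0.33, 0.000345). It was -1.998 for Cebpb (SE 0.41, 0.00479) and -2.04 for Bcl2l1 (SE 0.45, 0.00699). Each of these 4 differences passed under all 19 other settings, which include the other scalings, the array weights, a fit of the 12 C26 and KPP samples alone, and each C26 or KPP sample left out in turn. Nearest to 0 over these settings were -3.30 for Il6ra, -1.65 for Stat3, -1.35 for Cebpb and -1.43 for Bcl2l1. The difference for Cebpb and Bcl2l1 thus passed although neither effect passed in C26, and that for Stat3 although the KPP effect did not.

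Between C26 and LLC 3 of the 4 genes differed, where 25 genes of 168 (14.9%) differed and 10.1% stood lower in C26. The difference for Stat3 was -2.05 (SE 0.33, adjusted p = 0.00307) and passed in all 19 other settings (adjusted p = 0.0286 or less). Those for Il6ra (-2.39, SE 0.69, adjusted p = 0.0386) and Cebpb (-1.38, SE 0.41, 0.0402) did not hold with quantile normalization, where they were -1.65 (0.0723) and -0.73 (0.277). Both lay near the threshold and did not pass in most fits with 1 sample fewer. Without any 1 of the 6 LLC samples the Il6ra difference was -2.46 to -2.27 and that of Cebpb -1.52 to -1.23, so the values moved little, and the adjusted p was 0.0643 to 0.0786 and 0.053 to 0.087. Neither passed without C26 control C (-1.89 and -1.14), tumor A or tumor B, and that of Cebpb did not pass without tumor C. For Bcl2l1 the difference was -0.997 (SE 0.45, adjusted p = 0.135). Between LLC and KPP 0 of the 4 differed, where 1 gene of 168 (0.595%) did. Il6ra had the widest gap there, LLC lower by 1.54 (SE 0.69, adjusted p = 0.355), and Stat3 the narrowest (-0.21, SE 0.33, 0.822). An adjusted p above the threshold at this spread does not show that LLC and KPP acted alike.

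**Figure D3:**
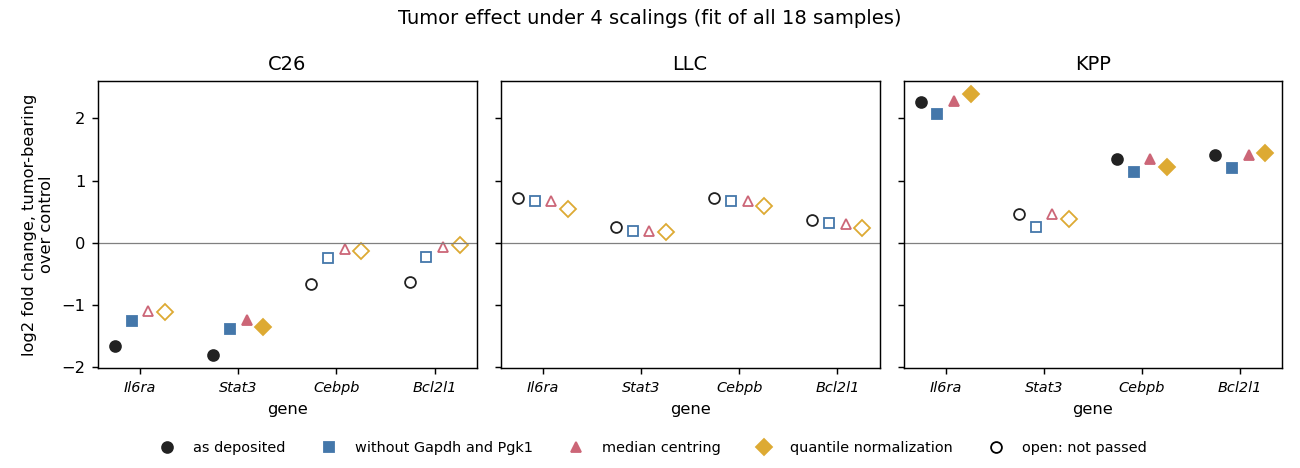
Log2 fold change (tumor-bearing over control) of each gene in each model as deposited and under 3 other scalings, in the fit of all 18 samples; open points did not pass. In C26 Cebpb and Bcl2l1 move from -0.65 and -0.63 toward 0, while Stat3 stays at -1.24 or below and the KPP values move little.

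Covariation was measured on deviations of each sample from its group mean, which removes the tumor effect and the scale of each model. Over 18 samples all 6 pairs of the 4 genes had a positive Pearson r, from 0.63 to 0.87, while the median r over all 14028 pairs of tested genes was 0.13 and the 95th percentile 0.73. Il6ra and Bcl2l1 had the highest r of the 6, 0.87 (Spearman rho 0.76, exact permutation within groups p = 0.00527 and 0.00632, Benjamini-Hochberg adjusted over the 6 pairs p = 0.0316 and 0.0379). It exceeded 99.3% of all gene pairs. Without C26 control C and KPP tumor B, the 2 samples farthest from the median Il6ra deviation, r was 0.75. The deviations were still taken from group means that include these 2 samples. This r therefore cannot show that the pair covaries without them. The call did not hold with median centring (r = 0.74, adjusted exact permutation p = 0.131) or quantile normalization (0.77, 0.0756). Within models r was 0.90 in C26, 0.18 in LLC and 0.89 in KPP, each over 6 samples, with exact permutation p of 0.111, 0.694 and 0.0556. The smallest p that 36 arrangements allow is 0.0278, and 0 of 18 within-model values passed after adjustment.

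The other 5 pairs did not pass by Pearson r. Cebpb and Bcl2l1 had r = 0.75 (rho 0.61, adjusted exact permutation p = 0.0792 and 0.0781), with 0.85 in C26, -0.23 in LLC and 0.84 in KPP. Il6ra and Cebpb had r = 0.72 (rho 0.49, 0.0983 and 0.15), and r fell to 0.41 without C26 control C and KPP tumor B. Stat3 and Cebpb had r = 0.68 (rho 0.63, 0.0983 and 0.0781) and Stat3 and Bcl2l1 r = 0.65 (rho 0.67, 0.0792 and 0.0493), so the latter pair passed by rank. Il6ra and Stat3 had the lowest r, 0.63 (rho 0.45, 0.0983 and 0.15), which was 0.26 without C26 control C and KPP tumor B. For these pairs too, the deviations were still taken from group means that include the samples left out. The weight of those samples is thus not fully removed from 0.41 and 0.26.

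KPP tumor B and C26 control C stood high in all 4 genes within their groups. In KPP tumor B the deviations were 1.26 for Il6ra, 0.54 for Stat3, 0.62 for Cebpb and 0.63 for Bcl2l1, above a median of 0.30 over all tested genes in that sample. In C26 control C they were 0.99, 0.22, 0.49 and 0.56 against a median of -0.09. Among all tested genes of the sample, the deviation of Stat3 stood at percentile 69.0 in KPP tumor B and 67.9 in C26 control C, and that of Il6ra at 92.3 and 97.6. Both samples were also high in the small heat shock gene Hspb1, at 50741 in KPP tumor B and 9342 in C26 control C. KPP tumor C, with Hspb1 at 62299, had negative deviations of all 4 genes, -0.66, -0.35, -0.02 and -0.09. C26 control A was low in all 4 genes, from -0.53 to -0.19, while its median over all genes was 0.25. KPP tumor A was low in all 4 genes too, at -0.59, -0.19, -0.61 and -0.55, with a median over all genes of -0.29. Deviations cancel within a group, so these low values in part mirror the high ones of KPP tumor B and C26 control C.

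**Figure D4:**
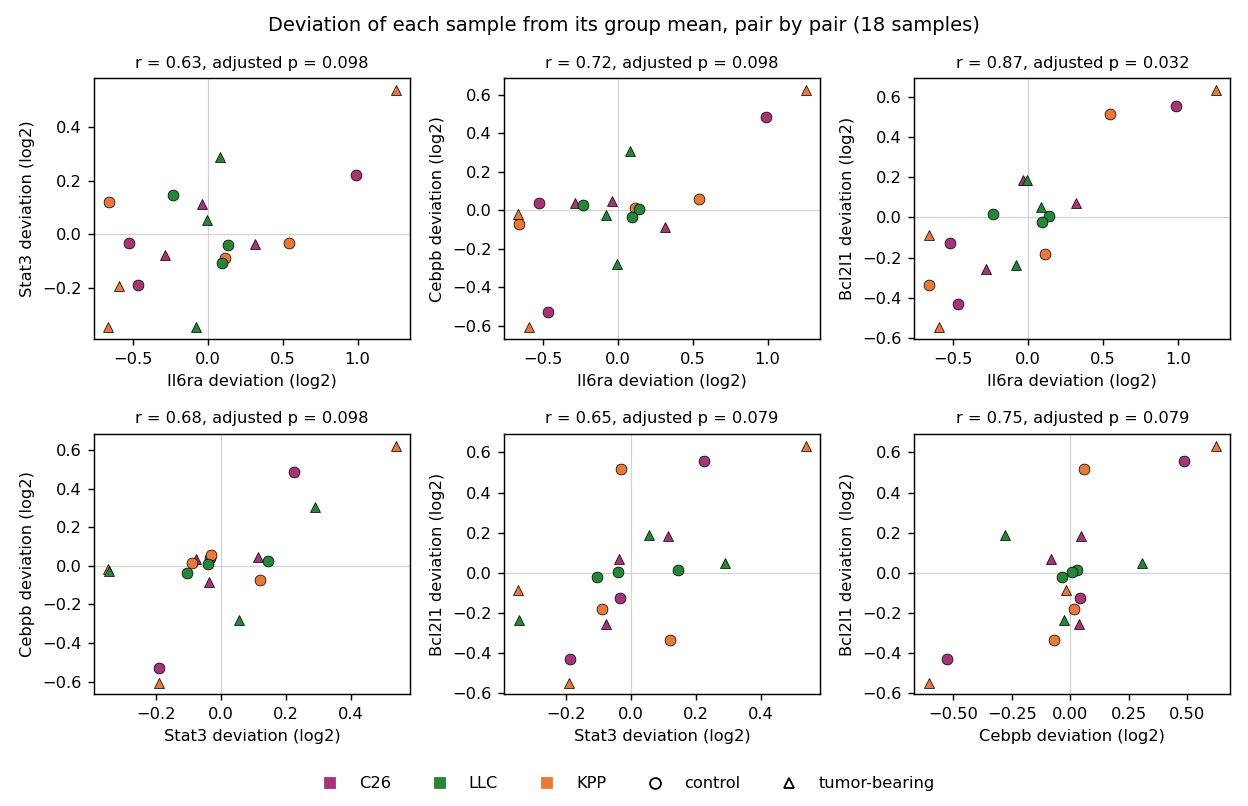
Log2 deviation of each of the 18 samples from its group mean for the 6 pairs of genes, colored by model, with circles for controls and triangles for tumor-bearing samples. Il6ra and Bcl2l1 lie closest to a line (r = 0.87), and KPP tumor B is at the upper right of each panel.

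The genes most like each of the 4 were sought over the 18 samples after centring each model on its own mean, so that tumor effect and spread both count. These r are descriptions, since samples share models and scaling. Nfe2l2, which encodes NRF2, the regulator of antioxidant genes, was the closest gene to Il6ra (r = 0.95) and to Cebpb (0.94), and stood close to Bcl2l1 (0.93). It ranged from 395 to 413 in C26 tumor-bearing samples and 462 to 602 in C26 controls, and from 1227 to 1933 in KPP tumor-bearing samples and 962 to 977 in KPP controls. Bcl2l1 followed for Il6ra (0.94) and Cebpb (0.91), and then came Max, the dimer partner of MYC, for Il6ra (0.93) and Il6ra for Cebpb (0.90). For Bcl2l1 the closest gene was Il6ra, followed by Nfe2l2 and Cebpb. Stat3 was nearest to a separate set: Rela, an NF-kB subunit (0.91), Hdac4, a deacetylase (0.85), and the transcription factor gene Myc (0.82). Its r with Il6ra, Cebpb and Bcl2l1 was 0.73, 0.64 and 0.62 by the same measure.

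Few other genes of the IL-6 family were measured. Of 11 cytokines and receptors that use gp130, the panel held Il6ra, Il6 and Il11. Il6, the ligand, was 24.0 in C26 control A and at most 3.14 in the other C26 samples, was at the floor of 20 in all LLC samples, and reached 10.2 in KPP tumor B. Il11 was at most 3.22 in C26 and KPP and at the LLC floor. Neither was tested, so these data give no direction for the ligands in muscle. Stat2, which encodes a partner of other STAT proteins in interferon signaling, was -0.85 (SE 0.41) in C26 and -0.0032 in KPP without passing. Of 7 genes of the C/EBP family and its partners, Cebpb and Ddit3 were tested. Ddit3, which encodes the dimer partner CHOP, rose in C26 (351 ± 87.5 against 151 ± 121, 1.47, SE 0.44, adjusted p = 0.0254) in the shared fit but did not pass with C26 fitted alone (0.13), and stood at -0.30 in KPP and -0.61 in LLC without passing.

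Genes commonly counted as responsive to STAT3 or IL-6 numbered 12 among those tested, and 4 of them are Il6ra, Stat3, Cebpb and Bcl2l1 themselves. Of the other 8, in C26 3 were lower and 0 higher in the shared fit, where 21.4% of all tested genes were called lower, with a median of -0.57 against -0.31 over all tested genes. They were C3, the central complement component (449 ± 199 against 2624 ± 1722, -2.43, SE 0.41, adjusted p = 0.000926), C4a (-4.35, SE 0.67, 0.000531) and Myc (44.2 ± 1.60 against 249 ± 158, -2.27, SE 0.52, 0.00677). With C26 fitted alone C4a passed (0.0255), and C3 (0.0594) and Myc (0.0508) did not. C3 and C4a are also made by macrophages and connective tissue cells. Probe sequences were not used here, so signal of the close copy C4b is not separated from that of C4a. In KPP 0 of these 8 were higher and C3 was lower (-1.51, SE 0.41, adjusted p = 0.0322, and 0.0395 with KPP fitted alone), where 5.95% of all tested genes were called lower, with a median of 0.04 against 0.01. Myc stood at 1.45 (SE 0.52, adjusted p = 0.0975) and Jun at 0.92 (SE 0.40, 0.169) without passing. In LLC 0 of the 8 passed, with a median of 0.31 against 0.01.

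The p38 kinase arm lies upstream of C/EBP beta. Of its 8 tested genes 4 were higher and 0 lower in C26 in the shared fit (median 0.60 against -0.31 over all genes), where 8.93% of all genes were called higher and 21.4% lower. In KPP 0 were higher and 1, Map2k6, was lower (median -0.17 against 0.01), where 5.36% of all genes were called higher and 5.95% lower. Map2k6, a kinase that activates p38, was 392 ± 9.40 in C26 tumor-bearing samples against 85.0 ± 32.3 (2.26, SE 0.43, adjusted p = 0.00262) and 220 ± 175 in KPP tumor-bearing samples against 1085 ± 13.7 (-2.61, SE 0.43, adjusted p = 0.0021). Map3k7 (0.65), Rps6ka5 (1.06) and Mapkapk5 (2.75) also rose in C26, the last from 1.73 to 18.5, both under the limit of 20. Of 8 genes of the RAS and ERK arm, Shc1 (-0.54) and Elk1 (-0.98) fell in C26, 2 genes against the 21.4% of all genes called lower, and 0 passed in KPP. Shc1 was 0.02 with median centring, and Elk1 was under 20 in mean in both C26 groups. Of 4 tested genes of IL-1 reception, Myd88 (-1.81, SE 0.36, adjusted p = 0.00318), Il1r1 (-1.31, SE 0.36, 0.0157) and Il1b (-1.83, SE 0.58, 0.0288, with means of 5.07 and 21.9) fell in C26, 3 genes against the same 21.4%, and 0 passed in KPP. In LLC 0 genes of these 3 lists passed. These counts are those of the shared fit. With C26 fitted alone, 1 of 7 genes of the p38 arm passed (Map2k6, adjusted p = 0.014), 0 of 6 of the RAS and ERK arm and 0 of 3 of IL-1 reception. With KPP fitted alone 0 of 7 genes of the p38 arm passed (Map2k6, 0.0547). In C26 alone, 2 of all 12 STAT3 or IL-6 responsive genes passed, C4a and Stat3 itself. Over all genes above background, the fits of a model alone called 4.69% in C26 and 3.82% in KPP.

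Markers of other cell types were set beside these values, since IL-6 receptor is also made by white blood cells. Of 15 macrophage and monocyte markers 6 were on the panel. In the shared fit 5 of them, C1qa, C1qb, Cd163, Mrc1 and Tyrobp, fell in C26, 0 passed in KPP and 0 in LLC. Over all tested genes 21.4% were called lower and 8.93% higher in C26, and 5.95% lower and 5.36% higher in KPP. With each model fitted alone 0 passed in C26, 0 in KPP and 1 in LLC, where Ccr2, a monocyte receptor gene, was higher (0.87, SE 0.19, adjusted p = 0.0445). Those fits called 4.69% of genes in C26, 3.82% in KPP and 6.2% in LLC. The median over the 6 in LLC was 0.56, against 0.01 over all genes. Their summed signal was 839 to 3859 in C26 controls and 300.04 to 638 in C26 tumor-bearing samples, 447 to 520.06 and 609 to 884 in LLC, and 1333 to 2218 and 977 to 2309 in KPP. The sums did not overlap between control and tumor-bearing samples in C26, where they were lower with tumors, or in LLC, where they were higher, and they overlapped in KPP. Of single genes above background, groups did not overlap for 29.7% (lower, C26), 17.8% (higher, LLC) and 16.6% (higher, KPP). In C26 controls A, B and C the macrophage and monocyte sums were 3859, 839 and 1055. Of 9 neutrophil markers 4 were on the panel, with sums of at most 121 in any sample, and in LLC controls all 4 were at the floor. In the shared fit 2 of them, Il1b and Mmp9, fell in C26. Mmp9 was -1.44 there (SE 0.435, limma adjusted p = 0.0254), with means of 5.36 and 12.8, both under the limit of 20. It also fell in KPP (-1.56, SE 0.435, adjusted p = 0.0337) and passed with KPP fitted alone (0.0247). Of 9 lymphocyte markers 3 were on the panel, with sums of at most 83.4. Among them Ccl5 fell in KPP in the shared fit (1.37 ± 0.32 against 32.9 ± 22.1, -3.51, SE 0.84, limma adjusted p = 0.0162), to a mean under 20. The 6 connective tissue markers summed to 1853 to 6595 in C26 controls and 702 to 1395 in C26 tumor-bearing samples, and to 3846 to 5512 and 1707 to 1921 in KPP. In LLC these sums were 1119 to 1160 and 1180 to 1504, so they were higher with tumors there. Members differed in direction. In the shared fit C3, C1s (-1.17) and Mmp3 (-4.28) fell in C26 while C7 (0.98, adjusted p = 0.0264) and Masp1 (0.96, 0.0401) rose. In KPP C3, C1ra (-1.59) and C7 (-2.60) fell while Masp1 rose (1.18, 0.0337). The 2 endothelial markers on the panel of 7 listed, Flt1 and Ptgir, summed to 777 to 1015 in KPP controls and 1499 to 1918 in KPP tumor-bearing samples, without overlap. Flt1, a receptor for vascular growth factors, rose in KPP in the shared fit (0.93, SE 0.21, adjusted p = 0.0121) and did not pass with KPP fitted alone (0.0696). Ptgir, the prostacyclin receptor gene, was higher with LLC fitted alone (0.64, SE 0.15, adjusted p = 0.0489). The endothelial sums were 189 to 237 and 226 to 337 in LLC and 231 to 265 and 236 to 299 in C26, and overlapped in both. Cfd, the only adipocyte marker on the panel, was 1390 to 9604 in C26 controls and 47.0 to 87.4 in C26 tumor-bearing samples (-5.63, limma adjusted p = 0.000253). In KPP it was 1201 to 5037 and 419.9 to 921, also lower without overlap (-1.93, adjusted p = 0.13, not passing). In LLC it was 297 to 623 and 170 to 1164, which overlapped. Of the 7 skeletal muscle genes on the panel 3 rose and 0 fell in C26 in the shared fit. They were Hspb2 (0.77, limma adjusted p = 0.0389), Mef2c (1.16, 0.0146) and Map2k6. The median of the 7 in C26 was 0.56, against -0.31 over all genes. In KPP only Map2k6 was called, as lower, and 0 passed in LLC. With C26 fitted alone 1 of the 7 passed. Muscle sums overlapped between groups in each model. In some samples these sums were mostly Hspb1, at 50741 of 64250 in KPP tumor B, 62299 of 75029 in KPP tumor C and 9342 of 11599 in C26 control C. The sums are thus no plain measure of muscle content. The part of each cell type in the values of Il6ra, Stat3, Cebpb and Bcl2l1 was not tested.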

How the data were processed

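RNA of 18 muscle samples was measured on an nCounter panel per the labels, which also give the groups (sample titles). The values deposited by the authors are a normalized signal, and no source used here gives their processing. From the values, the 6 housekeeping genes share a geometric mean within each model (532.0 in C26, 591.2 in LLC and 1769.1 in KPP). A background was taken off in C26 and KPP, and values under 20 were written as 20 in LLC. The table has 266 rows, with 8 negative and 4 positive controls, and 0 columns belong to no sample. Low values fell on whole steps (tolerance 0.1 of a step), and the size of a step gave the counts behind the values.

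A gene was tested when at least 3 of 18 samples reached 20 (LLC values above 20), which kept 168 of 248 genes. Group means of log2(value + 1) were fitted with limma (version 3.58.1, under R 4.3.3) and moderated by empirical Bayes. Benjamini-Hochberg adjustment ran over all tested genes. Every adjusted p of a gene is limma's, two-sided, with a threshold of 0.05. Groups of 3 against 3 samples allow no exact permutation p below 0.1, so none is given for single genes. Covariation used exact permutation of samples within groups (46656 arrangements, two-sided). Fits and permutations were tested on simulated data. The genes, lists and tests were chosen with earlier results of these data known. Named are the 4 genes, list genes that passed in any model, the 3 genes most like each, and a few others for their values (chosen after seeing them). Alternatives were other pseudocounts (5 and 20), filters, scalings, spreads, a replicate block and samples left out. Names and promoters come from RefSeq (GRCm38.p6), matched by symbol for all 4 genes. Counting errors cover counting only and leave out the subtracted background. One list of signaling genes is not reported here.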

Additional observations from a re-analysis of the deposited data

Results flagged for a closer look

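The tumor effect differed between models by limma's test of the difference itself for 7 of 12 gene and model pairs. Of all 168 tested genes, 16.1% differed between C26 and KPP, 14.9% between C26 and LLC and 0.595% between LLC and KPP. Against KPP, the C26 effect was lower for Il6ra (-3.93), Stat3 (-2.26), Cebpb (-1.998) and Bcl2l1 (-2.04). Against LLC, the C26 effect was lower for Il6ra (-2.39), Stat3 (-2.05) and Cebpb (-1.38). C26 mice are of another strain than LLC and KPP mice, each model was normalized on its own, and the KPP tumors were induced and not injected, so strain, normalization and tumor cannot be told apart in these differences. No group has 4 samples, so single samples were not tested for standing apart.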

How the results depend on the processing

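Of 228 values of the tumor effect under other settings 206 kept their direction and their side of the threshold, 18 no longer passed and 4 newly passed, and none turned. The C26 Il6ra effect no longer passed with median centring (-1.10), quantile normalization (-1.10), and, at -1.66, with the replicate block, array weights or C26 alone. Leaving out 1 sample gave -1.92 to -1.16. The C26 Cebpb effect ran from -0.92 to -0.41 with 1 sample left out. In LLC, Il6ra (0.73) passed with LLC alone over its own genes and Cebpb (0.73) there and with array weights. In KPP, Il6ra (2.27), Cebpb (1.34) and Bcl2l1 (1.41) did not pass with KPP alone over either set of genes or with the replicate block (adjusted p = 0.0656, 0.0656 and 0.0709). No sign of a pairing by letter was seen: same-letter deviations correlated between -0.33 and 0.24, and 6 of 18 samples correlated best with their own letter. With 3 samples per group this cannot exclude a pairing. The C26 minus LLC difference of Il6ra no longer passed with quantile normalization (-1.65) and the block (-2.39), and was -2.65 to -1.89 with 1 sample left out. That of Cebpb did not pass without Gapdh and Pgk1 (-0.92), with median centring (-0.76), quantile normalization (-0.73) or the block (-1.38), and was -1.65 to -1.14 with 1 sample left out. The LLC minus KPP difference of Stat3 turned to 0.058 without KPP tumor B (lowest -0.38). The fit of 2 models alone was chosen after seeing the data and changed no call. Il6ra and Bcl2l1 covaried without passing at r = 0.74 (median centring), 0.77 (quantile normalization), 0.85 without the C26 model and 0.83 without KPP, where fewer samples remain. Stat3 and Bcl2l1 passed by rho (0.67), and Cebpb and Bcl2l1 without LLC (0.84). Called genes numbered 51 in C26 but 4 or 6 with C26 alone, 25 with array weights, 31 without tumor A and 30 without tumor B. They numbered 0 in LLC but 8 with LLC alone over its own genes and 1 with array weights, and 19 in KPP but 6 or 7 with KPP alone, 2 with the block, 11 without control A, 10 without control C and 8 without tumor C. Beyond the alternatives named, the cause was not tested.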
